A study of Mus musculus with 16 samples.

Results

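Occlusal trauma alone was compared with no treatment in mouse periodontal ligament, the connective tissue that holds a tooth in its socket. The comparison took every library of the trauma group, 4 in all, and every library of the control group, also 4, out of the 16 RNA sequencing libraries of the series, by the treatment named in their labels. In the trauma group, composite resin had been built up on the biting surface of the upper left second molar. The control mice were untreated, and all mice were wild-type C57BL/6J males of 9 weeks. A further 4 libraries from mice with a silk thread tied round the same tooth, called ligature here, were used where overload was set against that lesion. The remaining 4 libraries, from mice with both treatments, entered only the shared estimate of spread. The sources used here do not say how long the overload lasted, or whether a library held tissue of 1 mouse or of several. The p-values therefore rest on the spread among these libraries alone, some of which may be technical. The labels call the tissue periodontal ligament, whereas the series title speaks of bone.

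The ligament senses chewing force. Its fibroblasts lie between tooth and alveolar bone, and force on the ligament is known to alter the balance of RANKL (Tnfsf11), which drives osteoclast formation, and osteoprotegerin (Tnfrsf11b), its decoy receptor. Excess force is also known to provoke sterile inflammation, in which resident cells release cytokines and chemokines that draw in neutrophils and monocytes.

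The 8 libraries held 58458102 to 77468584 counts each. Postn, the periostin gene that marks ligament fibroblasts, had 16017, 20578, 9305 and 30894 CPM (counts scaled to library size) in trauma libraries 1 to 4, against 6008, 18943, 31406 and 27839 CPM in control libraries 1 to 4. It was thus high in all 8 libraries, which alone does not show how much ligament each held. The bone gene Bglap was also high throughout, so the samples held bone cells as well. Col1a1, counted below with both osteoblast and collagen genes, was high throughout too. Correlations of log2 CPM between a trauma and a control library were 0.882 to 0.943, with a median of 0.923. Within the trauma group they were 0.916 to 0.934 (median 0.926), and within the control group 0.917 to 0.941 (median 0.928). The range between the groups was wider, with a lower minimum. It covers more pairs, which alone can widen a range, so it cannot show a separation of the groups. In bulk tissue, fewer cells of a type and less RNA per cell cannot be told apart.

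Of the 20953 genes tested, 1 passed in trauma against control: the gene for the acute-phase protein serum amyloid A3 (Saa3, ENSMUSG00000040026.9). It rose, and no gene fell, by edgeR's quasi-likelihood test at a Benjamini-Hochberg adjusted p under 0.05. That is 0.00477% of the genes called higher and 0% called lower. At an unadjusted p under 0.05, 839 genes were higher (4.0%) and 611 were lower (2.92%), or 6.92% in either direction. A positive log2 fold change was found for 10634 genes (50.8%). The 4 trauma libraries lay entirely above the 4 controls for 765 genes (3.65%) and entirely below them for 688 (3.28%). DESeq2 called 82 genes higher (0.392% of the 20895 it tested) and 36 lower (0.172%). These shares are the background against which the members of each gene group are counted below, and the median log2 fold change of all genes tested was 0.01. A log2 fold change is positive where trauma was higher.

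Saa3 is made by fibroblasts, macrophages and epithelium under inflammatory cytokines, and is the serum amyloid A known for production outside the liver in the mouse. It was counted 1797, 8759, 3671 and 4765 times in trauma libraries 1 to 4, against 81, 27, 31 and 23 times in control libraries 1 to 4. Scaled to depth, this was 24.1, 139.9, 65.3 and 64.6 CPM in trauma and 0.979, 0.368, 0.399 and 0.323 CPM in control. Trauma 2 was the highest and trauma 1 the lowest of the overloaded libraries, and all 16 pairings of a trauma with a control library had trauma higher. The log2 fold change was 7.14 ± 0.86 (SE), with a 95% interval of 5.32 to 8.96 and an edgeR adjusted p of 0.00684, or a 141-fold difference. When any single library was left out it stayed between 6.62 and 7.65. Leaving out control 4 ended the call (edgeR adjusted p = 0.0745), as did leaving out controls 3 and 4 together (log2 fold change 6.76, edgeR adjusted p = 0.421) and sample weights in limma-voom (adjusted p = 0.176), while DESeq2 gave an adjusted p of 3.97e-25.

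The promoters of Saa3, of the neutrophil chemokine gene Cxcl2 and of the replication gene Mcm5 are shown. These genes belong to 3 of the groups described below, and theirs were the searched windows that held a motif match. Each line gives the 250 bases before the RefSeq start, on the gene's strand, 5′ to 3′, with build GRCm38.p6, and capitals mark motif matches. The Saa3 window is chr7:46715677-46715926 (minus strand), that of Cxcl2 is chr5:90903649-90903898 (plus strand) and that of Mcm5 is chr8:75109259-75109508 (plus strand).
Saa3: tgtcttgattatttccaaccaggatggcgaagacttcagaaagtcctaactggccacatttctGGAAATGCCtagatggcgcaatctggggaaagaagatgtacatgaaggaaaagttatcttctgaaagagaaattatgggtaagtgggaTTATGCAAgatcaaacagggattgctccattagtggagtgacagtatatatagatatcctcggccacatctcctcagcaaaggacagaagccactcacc
Cxcl2: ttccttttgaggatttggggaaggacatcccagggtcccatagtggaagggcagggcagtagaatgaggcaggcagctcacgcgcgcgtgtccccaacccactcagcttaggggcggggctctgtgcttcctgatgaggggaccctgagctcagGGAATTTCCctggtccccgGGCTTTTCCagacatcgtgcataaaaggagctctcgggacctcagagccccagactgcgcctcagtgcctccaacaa
Mcm5: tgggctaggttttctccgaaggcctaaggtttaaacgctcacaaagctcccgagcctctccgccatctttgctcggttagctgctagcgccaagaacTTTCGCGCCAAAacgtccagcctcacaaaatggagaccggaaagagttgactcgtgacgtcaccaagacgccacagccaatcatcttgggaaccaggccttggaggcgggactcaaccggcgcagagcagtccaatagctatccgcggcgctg
Searched on both strands, the C/EBP motif TTGCNNAA was present in the Saa3 window at bases -99 to -92 and in 9.56% of 32851 promoters of this length. The core GGNNTTTCC of the kB motif was found in Cxcl2 at bases -96 to -88 and -77 to -69, in Saa3 on the other strand at bases -187 to -179, and in 4.93% of promoters. The E2F motif TTTNNCGC matched Mcm5 at bases -153 to -146 and, on the other strand and overlapping it, at -149 to -142. It was present in 4.28% of promoters. The windows of Il1b and Mcm2, also searched, held none of the 3 motifs. A match describes these letters only and shows no binding.

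Other acute-phase genes stood higher in most overloaded libraries. Of 15 tested members of the list, out of 16 listed, 13 had a positive log2 fold change, 8 were higher at an unadjusted p under 0.05 and none was lower. The list's median log2 fold change was 1.48, against 0.01 over all genes tested. Saa1, whose reads may be shared with its near-identical neighbour Saa2, had 0.363, 17.4, 4.59 and 4.64 CPM in trauma libraries, against 0.145, 0.436, 0.0772 and 0.0983 CPM in controls (log2 fold change 5.15 ± 1.03, edgeR adjusted p = 0.353). Trauma 1 lay within the control range for Saa1 and the other 3 lay above it. Lcn2 encodes lipocalin 2, which withholds iron from bacteria. Its values were 63.9, 782, 427 and 373 CPM in trauma and 47, 103, 23.5 and 41.7 CPM in control libraries (log2 fold change 2.93 ± 0.72, edgeR adjusted p = 0.446), and again only trauma 1 overlapped the controls. Serpina3g, a serine protease inhibitor, was at 1.91, 6.71, 5.67 and 4.46 CPM in trauma libraries and 2.24, 1.72, 1.8 and 0.969 CPM in control libraries, with trauma 1 inside the control range (log2 fold change 1.48 ± 0.35, edgeR adjusted p = 0.4). By DESeq2 these 3 genes passed with Saa3, at adjusted p of 6.26e-07 for Saa1, 0.00202 for Lcn2 and 0.0148 for Serpina3g, and 7 members of the list did in all.

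**Figure D1:**
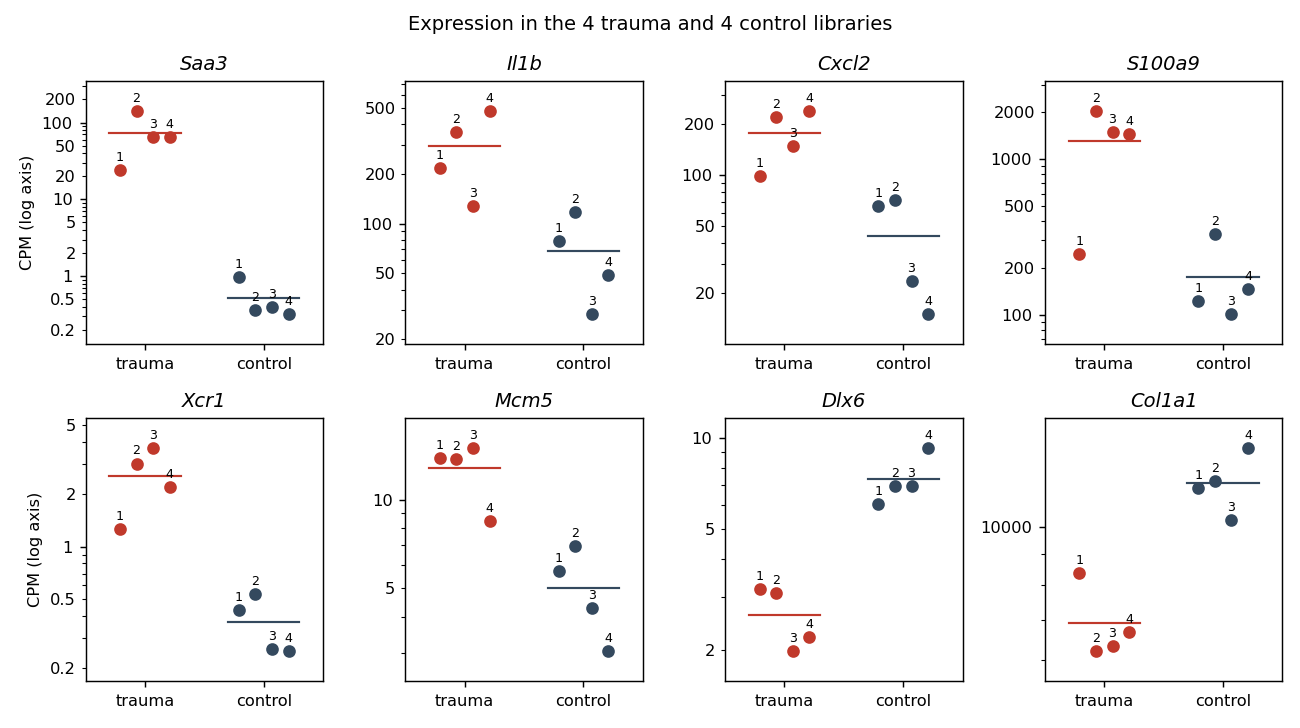
Expression of 8 genes in CPM on log axes, with trauma left of control. Each point is a library with its replicate number and each bar is the group mean; Saa3 lay between 24.1 and 139.9 CPM in trauma libraries and at or below 0.979 CPM in controls, and trauma 1 was the lowest overloaded library for S100a9, Cxcl2 and Xcr1.

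Inflammatory cytokine genes were mostly positive but uneven between the trauma libraries. Il6, whose product signals through gp130 and induces acute-phase proteins, was at 0.376, 56.5, 2.67 and 11.3 CPM in trauma libraries 1 to 4, against 0.0483, 0, 0.309 and 0 CPM in controls. No trauma library overlapped the controls, but trauma 2 alone held most of the group's signal and 2 controls had no count. The edgeR log2 fold change of 7.58 ± 1.39, which depends on the prior count at such low control levels, did not pass (adjusted p = 0.217), and DESeq2 gave no adjusted p. Without trauma 1, Il6 passed by edgeR at an adjusted p of 0.0319. Il1b, the interleukin-1β gene of activated myeloid cells, had 217, 357, 128 and 476 CPM in trauma libraries and 78.1, 117, 28.5 and 49.3 CPM in control libraries. Its lowest trauma library, trauma 3, lay just above its highest control, control 2, and the log2 fold change was 2.11 ± 0.53 (edgeR adjusted p = 0.449, DESeq2 adjusted p = 0.00847). Il1a, an alarmin released by stressed epithelium and stroma, had 39.3, 263, 171 and 198 CPM in trauma and 119, 87.8, 37 and 24.3 CPM in control libraries, with trauma 1 inside the control range (log2 fold change 1.33 ± 0.51, edgeR adjusted p = 0.664). In all, 17 of 20 cytokine genes had a positive log2 fold change and 9 were higher at an unadjusted p under 0.05, with none lower. The median was 1.2.

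Among the CXC chemokines, which draw in neutrophils, Cxcl2 and the receptor Cxcr2 separated the groups in every library. Cxcl2, one of the CXCR2 ligands, had 98.9, 221, 149 and 239 CPM in trauma libraries and 65.4, 71.2, 23.6 and 15.2 CPM in controls. The groups did not overlap, and the log2 fold change was 2.01 ± 0.55 (edgeR adjusted p = 0.499, DESeq2 adjusted p = 0.0258). Cxcr2 itself was at 10.1, 17.8, 8.18 and 19.5 CPM in trauma and 2.16, 6.03, 0.515 and 2.85 CPM in control libraries, also without overlap (log2 fold change 2.26 ± 0.59, edgeR adjusted p = 0.479). Cxcl3, another CXCR2 ligand, reached 41.1, 267, 347 and 448 CPM in trauma libraries and 91.1, 103, 45.7 and 19.5 CPM in controls, with trauma 1 below every control but control 4. Cxcl12, the stromal ligand that retains haematopoietic cells, had a negative log2 fold change, at 108, 72.2, 29.5 and 84 CPM in trauma and 238, 89.9, 145 and 162 CPM in control libraries (log2 fold change -1.11 ± 0.34, edgeR adjusted p = 0.559). Only trauma 1 reached the control range for Cxcl12. Of the 13 CXC chemokine and receptor genes, 10 were positive and 3 negative, and 6 were higher and 2 lower at an unadjusted p under 0.05, with a median of 1.3.

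Among the CC chemokines, which draw in monocytes and lymphocytes, 12 of 14 had a positive log2 fold change and 5 were higher at an unadjusted p under 0.05 (median 1.02). Ccl2, the main monocyte chemokine, was at 2.87, 115, 19.7 and 31 CPM in trauma libraries, against 3.29, 4.07, 4.43 and 4.12 CPM in controls. Trauma 1 lay below all 4 controls and trauma 2 to 4 above them, and the log2 fold change was 3.41 ± 0.83 (edgeR adjusted p = 0.418, DESeq2 adjusted p = 0.00101). Ccl3, a macrophage and neutrophil product, was at 26, 21.9, 5.94 and 23.5 CPM in trauma and 3.19, 6.75, 2.74 and 3.69 CPM in control libraries. Ccl4, its close relative, was at 39.6, 28.2, 10.2 and 36.1 CPM in trauma and 7.09, 12.7, 2.74 and 5.6 CPM in control libraries. For both, trauma 3 was the library inside the control range and trauma 1 the highest, whereas trauma 1 was the lowest trauma library for Ccl2. Ccl6 did not overlap, with 62.4, 126, 46.9 and 127 CPM in trauma libraries and 15.1, 41.8, 37.2 and 37.8 CPM in controls (log2 fold change 1.46 ± 0.51, edgeR adjusted p = 0.664).

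Of the 40 lists, that of mature neutrophils had the most members higher at an unadjusted p under 0.05. These were 12 of 19 genes; 18 had a positive log2 fold change, and the median was 1.64. S100a8 and S100a9 encode the subunits of calprotectin, the most abundant neutrophil cytosolic protein, which inflamed epithelium also makes. S100a9 had 246, 2018, 1496 and 1455 CPM in trauma libraries and 123, 331, 102 and 146 CPM in controls (log2 fold change 2.89 ± 0.64, edgeR adjusted p = 0.366, DESeq2 adjusted p = 0.000388). S100a8 had 276, 2557, 1878 and 1177 CPM in trauma libraries and 81.8, 343, 89.5 and 153 CPM in controls (log2 fold change 3.14 ± 0.73, edgeR adjusted p = 0.366). In both, trauma 1 lay within the control range, below control 2. Retnlg, which marks neutrophils more narrowly in the mouse, did not overlap: it was at 19, 52.2, 28.1 and 59.2 CPM in trauma and 4.13, 10.8, 4.44 and 7.92 CPM in control libraries (log2 fold change 2.54 ± 0.67, edgeR adjusted p = 0.496). Clec4e, the Mincle receptor of neutrophils and macrophages, had 25.6, 36.9, 8.54 and 31.2 CPM in trauma libraries, with trauma 3 inside the control values of 8.41, 12.4, 3.44 and 6.5 CPM. Ly6g, a defining neutrophil surface gene, had no count in 1 trauma and 2 control libraries.

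Granulocyte precursor genes, which are mostly switched off before neutrophils leave the marrow, had the opposite sign, and most of the difference came with 1 control library. Of the 12 genes 4 were lower at an unadjusted p under 0.05 and the median was -2.74. Mpo, myeloperoxidase, had 0.443, 0.288, 0.107 and 0.0814 CPM in trauma libraries, against 0, 0.586, 0 and 8.29 CPM in controls, so control 4 held nearly all of it. Its log2 fold change was -3.26 ± 1.48 (edgeR adjusted p = 0.711), or 0.24 without control 4. Prtn3, proteinase 3, was likewise highest in control 4, with 0, 0.24, 0 and 0.108 CPM in trauma and 0.459, 0.232, 0.412 and 2.46 CPM in control libraries. Without control 4 the list's median was -0.19.

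The gene Xcr1 marks the conventional dendritic cells that cross-present antigen. Its values were 1.26, 3, 3.68 and 2.21 CPM in trauma libraries and 0.435, 0.531, 0.257 and 0.253 CPM in controls. Every trauma library exceeded every control, with trauma 1 the nearest to them. The log2 fold change was 2.78 ± 0.5 and stayed between 2.54 and 3.0 when single libraries were left out. It passed by DESeq2 (adjusted p = 2.39e-06) and not by edgeR (adjusted p = 0.217, unadjusted p = 4.31e-05). The MHC class II and dendritic cell list that holds Xcr1 had a median of 0.13, and 7 of its 10 genes were positive. Ciita, the master regulator of MHC class II genes, was at 0.9, 3.03, 3.5 and 2.29 CPM in trauma and 1.55, 1.35, 0.746 and 1.05 CPM in control libraries, and trauma 1 overlapped the controls.

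Monocyte and macrophage genes were divided. Of 16 genes, 10 were positive and 3 were higher at an unadjusted p under 0.05 (median 0.47, or 0.15 without trauma 4). Lyve1, found on perivascular macrophages and lymphatic endothelium, had 2.52, 4.92, 3.88 and 3.24 CPM in trauma libraries and 2.37, 2.15, 1.29 and 2.19 CPM in controls, without overlap (log2 fold change 0.86 ± 0.4, edgeR adjusted p = 0.711). Arg1, which consumes arginine, was at 187, 527, 669 and 538 CPM in trauma and 237, 378, 106 and 40.9 CPM in control libraries, with trauma 1 below controls 1 and 2. The T and NK cell list had 12 of 14 genes positive and a median of 0.84 (1.3 without control 2), but 1 gene at an unadjusted p under 0.05. That gene was Trbc1, a T cell receptor constant segment, at 3.67, 9.95, 8.64 and 6.12 CPM in trauma and 3.25, 4.36, 2.2 and 0.857 CPM in control libraries. The B and plasma cell list, with 7 of its 10 members tested, had a median of 0.13.

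Interferon-stimulated genes were positive in 14 of 16 cases, with a median of 0.55 (0.3 without trauma 4) and 3 genes without overlap. Ifi44 had 2.11, 4.7, 1.25 and 6.59 CPM in trauma libraries and 0.592, 2.51, 1.18 and 2.12 CPM in controls (edgeR adjusted p = 0.697). Rsad2, the antiviral enzyme viperin, had the opposite sign, with 11.8, 6.68, 3.65 and 7.11 CPM in trauma libraries and 7.13, 12.4, 7.37 and 38.3 CPM in controls, where control 4 was far above the others. NF-kB feedback genes, which the pathway induces to restrain itself, had 13 of 16 positive and a median of 0.46, or 0.26 without trauma 4 and 0.11 without controls 3 and 4. Nfkbia, the IκBα inhibitor, was at 242, 324, 315 and 456 CPM in trauma and 264, 196, 155 and 151 CPM in control libraries. Socs3, which damps gp130 signalling, was at 25.2, 106, 32.2 and 98.2 CPM in trauma and 26.7, 44.1, 18.3 and 33 CPM in control libraries. Cebpd, a C/EBP factor that drives acute-phase genes, had 46.7, 155, 57.9 and 313 CPM in trauma libraries and 39.9, 28.5, 32.8 and 49.1 CPM in controls (log2 fold change 1.93 ± 0.52, edgeR adjusted p = 0.499). For these 3 genes trauma 2 and 4 lay above every control and trauma 1 lay within the control range.

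The prostaglandin E2 list had a median of 0.03, near that of all genes, and 1 member stood apart. Ptgs2, the inducible cyclooxygenase that force is known to raise in ligament cells, had 42.9, 119.5, 16 and 108 CPM in trauma libraries, against 17.4, 26.2, 6.86 and 17 CPM in controls. Trauma 3 lay within the control range, and the other 3 lay above it. The log2 fold change was 2.08 ± 0.54 (edgeR adjusted p = 0.491, DESeq2 adjusted p = 0.0137). Ptgs1, the constitutive form, was at 32.7, 28.4, 27 and 41.3 CPM in trauma and 22.8, 27.3, 22.6 and 24.6 CPM in control libraries, a log2 fold change of 0.41 ± 0.18.

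**Figure D2:**
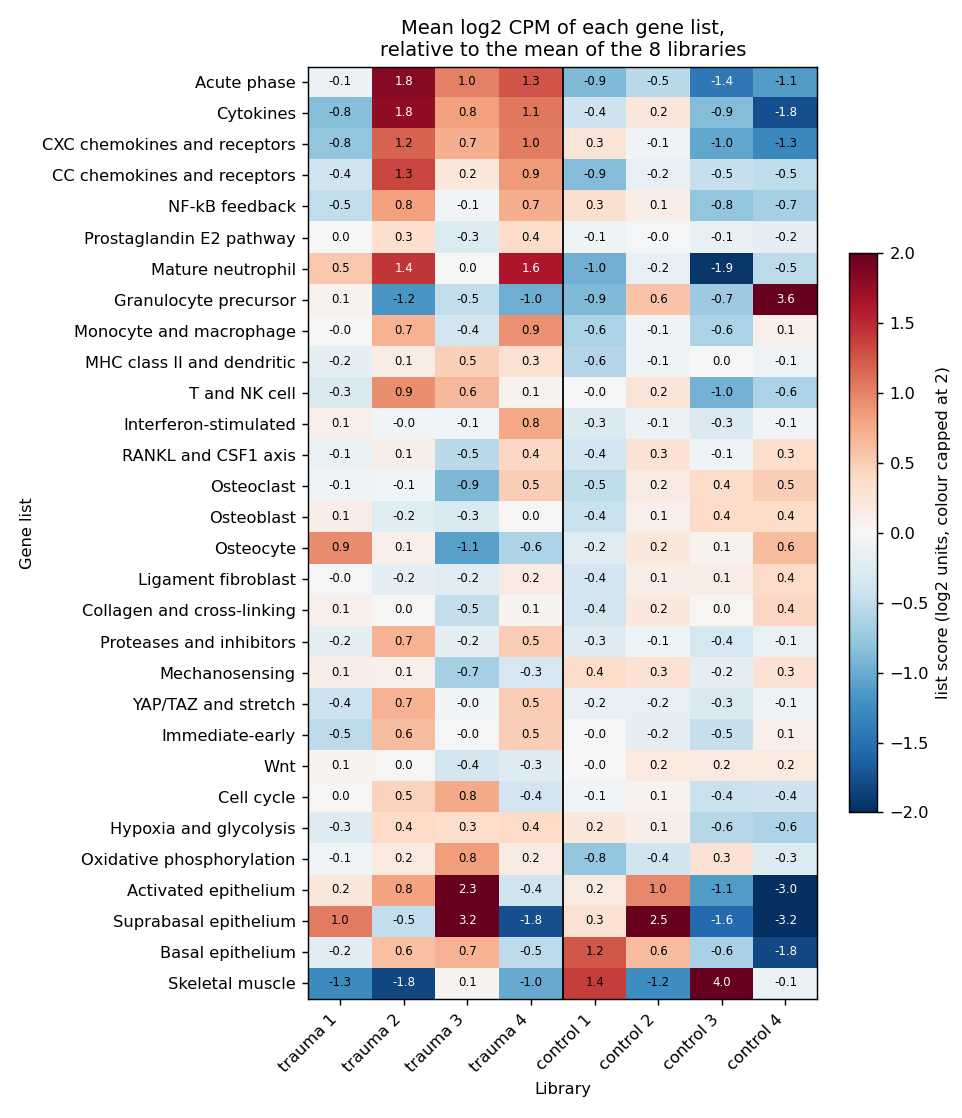
List scores, the mean log2 CPM of a list's tested genes after each gene is centred on the 8 libraries, with trauma libraries left of control libraries and red for higher. Trauma 2 and 4 were highest for neutrophil genes (1.4 and 1.6), control 4 for granulocyte precursors (3.6) and control 3 for skeletal muscle (4.0).

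DNA replication and the cell cycle formed the list with the most members lying above every control in all 4 trauma libraries. Of its 21 cell cycle genes, 18 had a positive log2 fold change, 7 were higher at an unadjusted p under 0.05 and 6 did not overlap, and the median was 0.48. Mcm5, a subunit of the replicative helicase, had 13.9, 13.8, 15 and 8.5 CPM in trauma libraries and 5.73, 6.97, 4.29 and 3.06 CPM in controls (log2 fold change 1.35 ± 0.28, edgeR adjusted p = 0.353, DESeq2 adjusted p = 0.00101). Mcm2, a further subunit, had 11.2, 10.8, 12.2 and 11.6 CPM in trauma libraries and 4.88, 5.84, 5.48 and 5.82 CPM in controls, a narrow range in both groups (log2 fold change 1.06 ± 0.24, edgeR adjusted p = 0.366, DESeq2 adjusted p = 0.00387). Neither subunit overlapped between the groups. Both were named for a low p in these same libraries, so their separation is no separate support. Pclaf, a partner of the sliding clamp PCNA, had 15, 35, 50.9 and 14.9 CPM in trauma libraries and 8.24, 9.95, 6.74 and 5.03 CPM in controls (log2 fold change 1.95 ± 0.4, edgeR adjusted p = 0.353). Tk1, the thymidine kinase of S phase, had 10.1, 15, 28.2 and 9.9 CPM in trauma libraries and 6.73, 6.78, 4.71 and 3.91 CPM in controls (log2 fold change 1.51 ± 0.34, edgeR adjusted p = 0.366). Both were highest in trauma 3. Cdc45, which activates the helicase, had 5.51, 6.41, 8.5 and 4.87 CPM in trauma libraries and 4.33, 3.19, 1.93 and 1.91 CPM in controls, again without overlap. Rrm2, a ribonucleotide reductase subunit, was at 24.3, 28.6, 65.3 and 21.6 CPM in trauma and 23.1, 19.8, 10.6 and 13.6 CPM in control libraries, with trauma 4 inside the control range. Genes of activated epithelium, described below, also scored highest in trauma 3 (2.33 log2 units from the mean of the 8 libraries) and lowest in controls 3 and 4 (-1.12 and -2.95), and their part in this result was not tested.

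Further genes that did not overlap and lay higher in trauma were of varied function. Dpt encodes dermatopontin, a matrix protein, and had 23.2, 53.5, 37.5 and 61.2 CPM in trauma libraries and 11.8, 15.9, 19.5 and 19.5 CPM in controls (log2 fold change 1.4 ± 0.31, edgeR adjusted p = 0.366). Samsn1, an adaptor of haematopoietic cells, was at 20.7, 22.6, 15 and 27.3 CPM in trauma and 7.39, 8.29, 4.41 and 7.56 CPM in control libraries (log2 fold change 1.63 ± 0.38, edgeR adjusted p = 0.366). Arg2, the mitochondrial arginase, had 8.61, 12.4, 7.08 and 13.8 CPM in trauma libraries and 5.14, 2.94, 1.08 and 2.18 CPM in controls (log2 fold change 1.88 ± 0.47, edgeR adjusted p = 0.449). In each of the 3, and in Mak16 and Depdc7 below, every trauma library exceeded every control, which the way of choosing them required. Mak16, a ribosome biogenesis factor, differed less but evenly, at 54, 63.5, 66.8 and 62.6 CPM in trauma and 40.6, 40.5, 40.1 and 32.8 CPM in control libraries (log2 fold change 0.68 ± 0.16, edgeR adjusted p = 0.4). Depdc7 had 6.66, 26.2, 36.7 and 13.8 CPM in trauma libraries and 6.03, 5.91, 4.77 and 5.45 CPM in controls, so trauma 1 lay close to the controls and trauma 3 far above them (log2 fold change 1.91 ± 0.42, edgeR adjusted p = 0.366).

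On the lower side, no gene passed by edgeR, whereas 611 genes were lower at an unadjusted p under 0.05 and 36 passed by DESeq2. The 12 genes named here and in the next paragraph had the lowest p among those whose groups did not overlap. Their separation in every library therefore follows from the choice. Faim2, an inhibitor of Fas-driven cell death, had 3.72, 3.45, 2.88 and 5.75 CPM in trauma libraries and 8.45, 12.8, 14.9 and 14.8 CPM in controls (log2 fold change -1.69 ± 0.33, edgeR adjusted p = 0.31, DESeq2 adjusted p = 0.000247). Dlx6, a homeobox factor of jaw and osteoblast development, was at 3.17, 3.08, 1.99 and 2.21 CPM in trauma and 6.07, 6.96, 6.97 and 9.27 CPM in control libraries (log2 fold change -1.48 ± 0.31, edgeR adjusted p = 0.366, DESeq2 adjusted p = 0.000438). The lowest control was control 1 for both genes. Dglucy, a mitochondrial D-glutamate cyclase, had 28, 17.8, 13.9 and 17.2 CPM in trauma libraries and 45.9, 37.6, 52.4 and 48 CPM in controls (log2 fold change -1.26 ± 0.26, edgeR adjusted p = 0.353). Kctd12, an auxiliary subunit of GABA-B receptors, had 336, 282, 186 and 225 CPM in trauma libraries and 516, 441, 784 and 941 CPM in controls (log2 fold change -1.38 ± 0.32, edgeR adjusted p = 0.366). Controls 3 and 4 were the highest libraries for Kctd12.

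Matrix and signalling genes were among the rest of the 12. Spock2, a matrix proteoglycan, had 7.49, 3.91, 4.93 and 6.73 CPM in trauma libraries and 15.1, 15, 14.5 and 18.6 CPM in controls (log2 fold change -1.45 ± 0.32, edgeR adjusted p = 0.366). Igfbp3, which binds insulin-like growth factors, was at 215, 264, 182 and 326 CPM in trauma and 439, 369.9, 503 and 531 CPM in control libraries (log2 fold change -0.9 ± 0.22, edgeR adjusted p = 0.449). Smoc1, an extracellular modulator of BMP signalling, had 9.41, 6.72, 5 and 8.27 CPM in trauma libraries and 10.4, 13.1, 23.6 and 16.6 CPM in controls (log2 fold change -1.11 ± 0.3, edgeR adjusted p = 0.499). Trauma 1 came closest to the controls for Spock2 and Smoc1, and trauma 4 for Igfbp3. Gucy1b1, the β subunit of the nitric oxide receptor of vascular smooth muscle and pericytes, had 5.26, 3.37, 2.6 and 0.99 CPM in trauma libraries and 12.1, 8.03, 10.8 and 13.9 CPM in controls (log2 fold change -1.88 ± 0.5, edgeR adjusted p = 0.499). Nfatc4, Ehbp1, the imprinted gene Peg3 and Cpt1c completed the 12, with log2 fold changes of -0.89, -0.94, -1.22 and -0.93. By DESeq2, 11 of the 12 passed and Smoc1 did not (adjusted p = 0.0575), against 36 lower genes (0.172%) among all it tested. The 12 were picked for a low p in these same libraries, so this count is no separate support.

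The osteoclast programme did not differ detectably between overloaded and untreated ligament. None of its 17 genes was higher or lower at an unadjusted p under 0.05, 3 were positive and the median was -0.32. Ctsk, cathepsin K, which digests bone collagen, had 1287, 1577, 863 and 2416 CPM in trauma libraries and 572, 1712, 2794 and 2342 CPM in controls. The log2 fold change was -0.27 ± 0.38, with a 95% interval of -1.08 to 0.54 (edgeR adjusted p = 0.884). Acp5, the tartrate-resistant acid phosphatase used as an osteoclast stain, had 456, 449, 231 and 1011 CPM in trauma libraries and 152, 462, 741 and 667 CPM in controls. Its log2 fold change was 0.09 ± 0.43, with a 95% interval of -0.83 to 1.0 (edgeR adjusted p = 0.974). Trauma 4 was the highest and trauma 3 the lowest overloaded library for both, and control 1 was the lowest of all 8. Dcstamp, needed for osteoclast fusion, was at 10.4, 14, 5.64 and 27.8 CPM in trauma and 6.44, 22.1, 33.2 and 26.2 CPM in control libraries, and Itgb3, the β3 integrin, at 20.7, 32.1, 21.4 and 28.8 CPM in trauma and 48.8, 53.4, 29.6 and 41 CPM in control libraries. The list's median was -0.55 without trauma 4, -0.08 without trauma 3 and 0.02 without controls 3 and 4, and the log2 fold change of Ctsk was 0.43 without those controls.

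RANKL and osteoprotegerin were read as single genes, since their list of 9 had 2 positive members and a median of -0.23. Another member, 1 of the 9, lay below every control in all 4 trauma libraries, against 3.28% of all genes tested. None lay above every control in all 4, against 3.65%. Tnfsf11, RANKL, had 5.48, 87.9, 17.3 and 117 CPM in trauma libraries and 2.56, 19, 17.1 and 37.5 CPM in controls. Trauma 2 and 4 exceeded every control, and trauma 1 and 3 did not. Its log2 fold change was 1.58 ± 0.73, with a 95% interval of 0.02 to 3.13 (unadjusted p = 0.0471, edgeR adjusted p = 0.715). Tnfrsf11b, osteoprotegerin, had 232, 458, 198 and 572 CPM in trauma libraries and 174, 332, 242 and 317 CPM in controls, with trauma 2 and 4 again the highest (log2 fold change 0.45 ± 0.39, edgeR adjusted p = 0.815).

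Osteoblast and matrix lists had negative medians that turned positive without controls 3 and 4. Of 17 tested osteoblast genes, 5 were positive, 2 were lower at an unadjusted p under 0.05 and the median was -0.25, or 0.07 without controls 3 and 4 and -0.08 without trauma 3. Col1a1, the main chain of type I collagen, had 8372, 6217, 6328 and 6688 CPM in trauma libraries and 11630.0, 11921, 10286 and 13543 CPM in controls. All 4 trauma libraries lay below all 4 controls, with a log2 fold change of -0.78 ± 0.25 (edgeR adjusted p = 0.621, DESeq2 adjusted p = 0.098). Sp7, the osteoblast factor osterix, had 105, 64.1, 75.5 and 70.3 CPM in trauma libraries and 103, 131, 117 and 100.2 CPM in controls, with trauma 1 inside the control range. Bglap, osteocalcin, whose reads may be shared with its near-identical neighbour Bglap2, had 3232, 2141, 1716 and 1795 CPM in trauma libraries and 1161, 1751, 2928 and 3049 CPM in controls, a log2 fold change with a 95% interval of -0.76 to 0.76. Among the 10 osteocyte genes Sost, the sclerostin gene that loading is known to lower in bone, had 14.8, 3.85, 2.08 and 1.4 CPM in trauma libraries and 0.749, 10.5, 7.49 and 5.41 CPM in controls. Trauma 1 and control 2 were the highest Sost values in their groups and the interval of the log2 fold change ran -2.2 to 1.95. Tnfrsf19, on the same list, lay below the controls in every trauma library, with 177, 99.8, 119.8 and 135 CPM in trauma and 197, 243, 238 and 191 CPM in control libraries (log2 fold change -0.71 ± 0.29, edgeR adjusted p = 0.687).

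**Figure D3:**
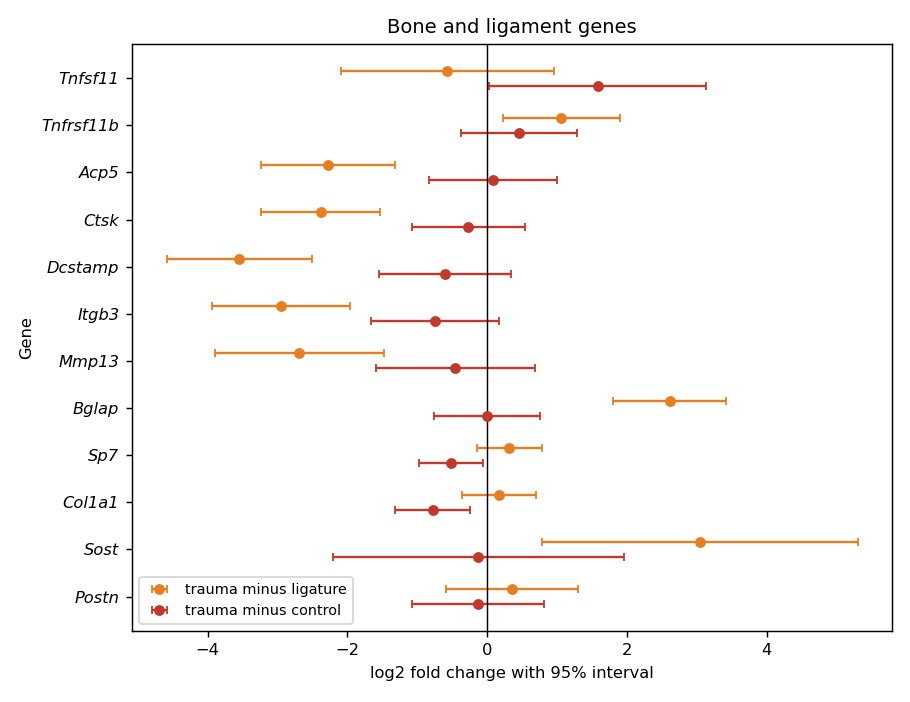
Log2 fold changes with 95% intervals of 12 bone and ligament genes, trauma minus ligature above trauma minus control for each gene. Against ligature the osteoclast genes Ctsk (-2.38), Dcstamp (-3.54) and Itgb3 (-2.95) lie left of 0 and Bglap (2.61) right of it, while the intervals against control include 0 for Ctsk, Acp5, Bglap and Sost.

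The ligament fibroblast list had no member at an unadjusted p under 0.05 and a median of -0.12 over 18 genes, or 0.1 without controls 3 and 4. Lum, lumican, which organises collagen fibrils, had 6099.9, 6656, 3695 and 5274 CPM in trauma libraries and 4341, 8340.5, 9208 and 10545 CPM in controls (log2 fold change -0.58 ± 0.32, edgeR adjusted p = 0.758). Scx, the tendon and ligament factor scleraxis, had 12.2, 15.4, 22.3 and 22.9 CPM in trauma libraries and 12.3, 28.7, 30.4 and 29.6 CPM in controls, where control 1 stood below the other 3. Collagen and cross-linking genes had a median of -0.16 (0.08 without controls 3 and 4) and 2 of 17 lower at an unadjusted p under 0.05. They were Col1a1 and Plod2, the lysyl hydroxylase of collagen cross-links, which had 258, 251, 107 and 173 CPM in trauma libraries and 236, 328, 319 and 474 CPM in controls. Proteases and their inhibitors had 6 of 22 genes higher at an unadjusted p under 0.05 and a median of 0.31, or 0.11 without trauma 4. Mmp12, macrophage elastase, was at 47.5, 272, 69.7 and 280.1 CPM in trauma and 57.2, 65.9, 24.8 and 15.4 CPM in control libraries (log2 fold change 2.03 ± 0.62, edgeR adjusted p = 0.559). Plaur, the urokinase receptor, was at 47.4, 197, 90.8 and 291 CPM in trauma and 30.6, 64.7, 56.3 and 112 CPM in control libraries. Trauma 1 lay inside the control range for both, and trauma 3 for Plaur as well. Mmp13, the collagenase of bone cells, had 1302, 3616, 804 and 2557 CPM in trauma libraries and 772, 3439, 3735 and 3395 CPM in controls, where control 1 was the lowest value (log2 fold change -0.45 ± 0.54, edgeR adjusted p = 0.86).

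Both lists for force sensing had negative medians. The 10 mechanosensing genes had 2 positive members, none at an unadjusted p under 0.05, and a median of -0.36. Of 16 targets of YAP/TAZ and stretch, 4 were higher and 1 lower at an unadjusted p under 0.05, with a median of -0.27, or -0.09 without control 4 and 0.22 without controls 3 and 4. Edn1, the vasoconstrictor endothelin 1, was at 3.29, 11.2, 9.96 and 14.6 CPM in trauma and 5.56, 7.53, 4.27 and 4.73 CPM in control libraries. Tgfb2, a TGF-β ligand, was at 108, 64.8, 64.6 and 70.7 CPM in trauma and 137, 80.7, 103 and 118 CPM in control libraries. Trauma 1 differed from the other trauma libraries in both, below every control for Edn1 and inside the control range for Tgfb2. Immediate-early genes, which stress switches on within minutes, had 14 of 20 positive and a median of 0.36, or 0.17 without trauma 2. Ier3, a survival factor on that list, had 54.9, 131, 94.7 and 176 CPM in trauma libraries and 54.1, 53.6, 53.2 and 41.4 CPM in controls, so trauma 1 was above control 1 by under 1 CPM (log2 fold change 1.17 ± 0.4, edgeR adjusted p = 0.657). The AP-1 subunits differed in sign: Junb was at 71.2, 184, 79.9 and 184 CPM in trauma and 88.2, 74.8, 38.9 and 43.7 CPM in control libraries. Jund was at 81.7, 79.4, 38.9 and 59 CPM in trauma and 132, 126, 77 and 119.8 CPM in control libraries.

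Wnt pathway genes were mostly negative, with 2 of 17 positive and a median of -0.25. Nkd2, a feedback inhibitor of Dishevelled, had 38.2, 35.9, 36.7 and 43.5 CPM in trauma libraries and 44.9, 62.1, 60.5 and 62.7 CPM in controls, without overlap (log2 fold change -0.58 ± 0.2, edgeR adjusted p = 0.659). The secreted Frizzled-related genes had opposite signs. Sfrp2 was at 207, 282, 184 and 355 CPM in trauma and 183, 427, 686 and 652 CPM in control libraries (log2 fold change -0.92 ± 0.37, edgeR adjusted p = 0.683), and Sfrp4 was at 148, 749, 249.6 and 632 CPM in trauma and 103, 248, 230.3 and 214 CPM in control libraries (log2 fold change 1.16 ± 0.43, edgeR adjusted p = 0.664). Control 1 was the lowest library for both. Hypoxia and glycolysis genes were positive in 15 of 17 cases, with a median of 0.5, or 0.3 without control 3 and 0.16 without controls 3 and 4. Pgk1, a glycolytic kinase, was at 151, 291, 333 and 233 CPM in trauma and 156, 172, 135 and 108 CPM in control libraries. Ldha, lactate dehydrogenase A, was at 732, 1316, 1655 and 1052 CPM in trauma and 925, 812, 523 and 426 CPM in control libraries. Trauma 1 lay inside the control range for both, and trauma 3 was the highest.

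Epithelial genes varied widely between the libraries of both groups. Summed over 18 suprabasal genes, the libraries held 5713, 1779, 15743 and 482 CPM in trauma 1 to 4, against 2892, 6974, 789 and 207 CPM in control 1 to 4. Krt13, a keratin of non-keratinised oral mucosa, was at 1742, 331, 5886 and 74.4 CPM in trauma and 522, 1318, 176 and 16.4 CPM in control libraries (log2 fold change 1.98 ± 1.2, edgeR adjusted p = 0.766). The suprabasal median of 0.58 was -0.54 without trauma 3 and 2.32 without control 2. Krt14, the keratin of basal cells, had 4083, 7156, 14682 and 3250.1 CPM in trauma libraries and 7388, 5259, 2078 and 936 CPM in controls. The basal list's median was -0.15, with 4 of 12 genes positive.

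Of the 16 genes of activated, wounded epithelium, all 16 had a positive log2 fold change. Their median was 1.43, and 4 were higher at an unadjusted p under 0.05. Defb14, an antimicrobial β-defensin, had 4.73, 24.6, 27.2 and 30.5 CPM in trauma libraries and 4.81, 8.36, 3.26 and 2.21 CPM in controls (log2 fold change 2.22 ± 0.64, edgeR adjusted p = 0.511, DESeq2 adjusted p = 0.0437). Sprr2d, a cornified envelope protein, had 627, 2829.9, 3551 and 3099.5 CPM in trauma libraries and 759.9, 1122, 323 and 116 CPM in controls (log2 fold change 2.12 ± 0.68, edgeR adjusted p = 0.606). Areg, an EGF receptor ligand, was at 3.83, 40.2, 30.9 and 9.26 CPM in trauma and 6.68, 7.6, 3.42 and 0.253 CPM in control libraries. In these 3 genes trauma 1 lay inside the control range and the others above it. The list's median was 0.45 without trauma 3 and 0.61 without controls 3 and 4. Suprabasal genes were likewise at their highest sum in trauma 3, and the part of epithelial content in this result was not tested.

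Marker genes of tissues next to the ligament differed in level between libraries. Skeletal muscle genes summed to 9.51, 8.19, 16.8 and 11.8 CPM in trauma 1 to 4, against 34.4, 8.18, 385 and 20.2 CPM in control 1 to 4, and control 3 held most of them. Of 19 tested muscle genes 9 were lower at an unadjusted p under 0.05 and the median was -3.59, or -1.35 without control 3. Myh7, of slow muscle, had no count in 3 trauma and 4 control libraries. Acta1, skeletal α-actin, had 0.309, 0.335, 1.78 and 1.02 CPM in trauma libraries and 5.18, 0.667, 22.5 and 0.674 CPM in controls. Cartilage genes had a median of -0.8, and Col9a2, a type IX collagen chain, was at 3.33, 3.71, 0.783 and 2.4 CPM in trauma and 5.5, 5.54, 10.6 and 15.8 CPM in control libraries, without overlap. Endothelial, Schwann cell, erythroid and junctional epithelium lists had medians of 0.05, -0.16, -0.33 and -0.19. Without controls 3 and 4 the erythroid median was 1.01 and that of the junctional list 0.19. The salivary gland list had 6 of its 10 members tested, 3 positive and 3 negative. Its median was 0.89, or -1.06 without trauma 2. Of the 6, 2 lay above every control in all trauma libraries and 1 lay below, against 3.65% and 3.28% of all genes tested. Bpifa2, on this list, was highest in trauma 2 and did not overlap. It had 1.21, 22.2, 1.35 and 1.41 CPM in trauma and 0.0604, 0.218, 0.695 and 0.478 CPM in control libraries. The part of these tissues in the differences above was not tested.

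Nuclear genes of oxidative phosphorylation were positive in all 20 cases, with a median of 0.53. Cox5a, a cytochrome c oxidase subunit, had 105, 129, 197 and 134 CPM in trauma libraries and 69.3, 78.9, 94 and 70.7 CPM in controls, without overlap (log2 fold change 0.85 ± 0.34, edgeR adjusted p = 0.677). The libraries differed in how counts followed transcript length: the rank correlation was 0.355 to 0.408 in trauma and 0.408 to 0.466 in control libraries. With that length trend taken out, the list's median was 0.16. The 13 mitochondrially encoded genes had a median of -0.03.

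Consistency over single libraries differed by group of genes. Over all genes tested, 18.7% lay above all 4 controls in trauma 1, 22.0% in trauma 2, 28.6% in trauma 3 and 25.1% in trauma 4. Of the 20 cytokine genes, 3 did so in trauma 1, 15 in trauma 2, 13 in trauma 3 and 10 in trauma 4. For the 15 acute-phase genes the counts were 3, 11, 9 and 10 in the same order, and for the 16 NF-kB feedback genes they were 0, 9, 3 and 12. Trauma 1 had the fewest in all 3 lists, although its Saa3 level was above every control. Of the 19 neutrophil genes, 10 lay above all controls in trauma 1, 15 in trauma 2, 6 in trauma 3 and 18 in trauma 4. The 21 cell cycle genes had the counts 11, 15, 17 and 9. Below all controls lay 3, 1, 0 and 7 of these genes in trauma 1 to 4, against 15.2%, 20.1%, 27.4% and 21.5% of all genes tested. The cell cycle score of trauma 4 (-0.39) was below those of controls 1 and 2 (-0.05 and 0.07) and close to those of controls 3 and 4 (-0.45 and -0.41). Activated epithelium was uneven, with 2, 9, 16 and 5 of its 16 genes.

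Leaving out each of the 8 libraries in turn changed no sign among the medians of the acute-phase, cytokine, CXC, CC, NF-kB, neutrophil and cell cycle lists. The acute-phase median ranged between 1.25 and 1.74, the cytokine median between 0.96 and 2.04 and the neutrophil median between 1.37 and 2.01. The cell cycle median ranged between 0.36 and 0.68. The medians of 13 of the 40 lists took both signs, among them those for osteocyte, collagen, prostaglandin, MHC class II, endothelial and basal, suprabasal and junctional epithelial genes. Control 3 scored highest for muscle genes and control 4 for granulocyte precursor genes. Without controls 3 and 4, the neutrophil median was 1.5, the acute-phase median 1.71 and the cytokine median 0.76. The cell cycle median was then 0.32 and the muscle median -1.46.

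**Figure D4:**
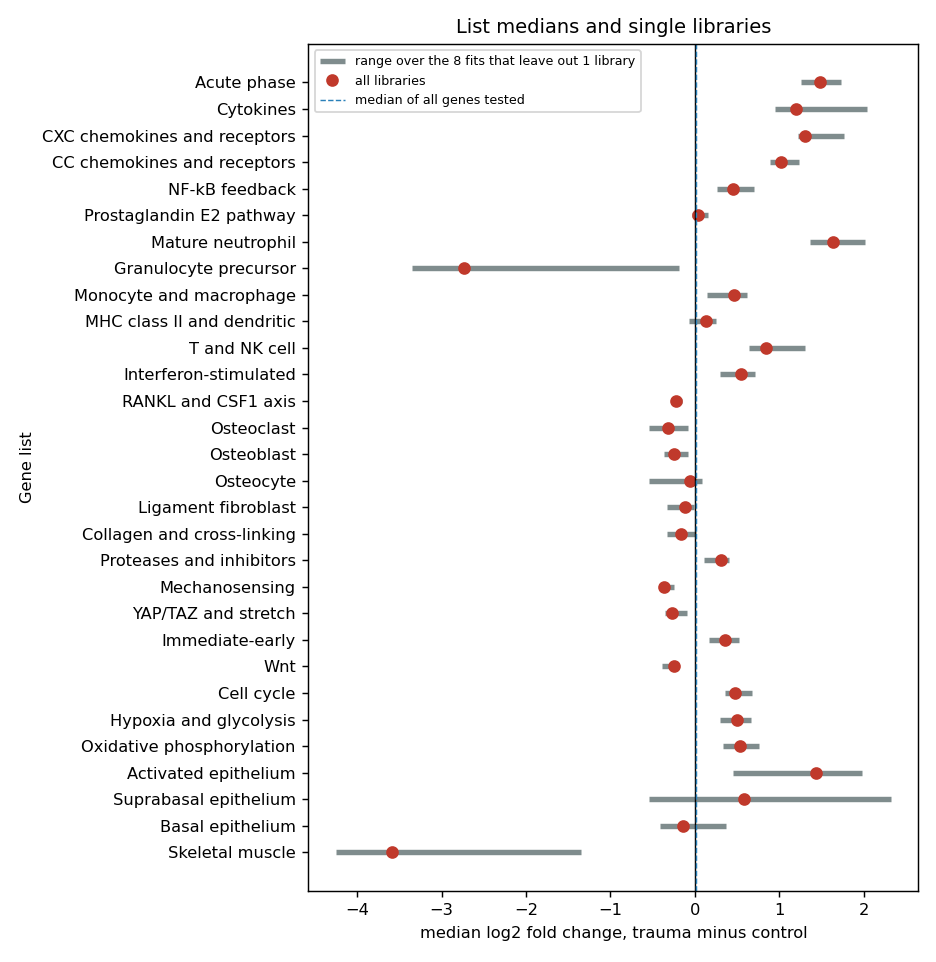
Median log2 fold change of each gene list, trauma minus control, as points, with grey bars for the range over the 8 fits that each leave out 1 library. The neutrophil bar runs between 1.37 and 2.01 and the suprabasal bar between -0.54 and 2.32.

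Overload alone was also set against the ligature. The control libraries do not enter this fold change but share in the estimate of spread. Here 643 genes passed as higher in trauma (3.07%) and 589 as lower (2.81%). Saa3 averaged 73.5 ± 48.3 CPM in trauma libraries, against 7508 ± 5071 CPM in ligature libraries (SD, n = 4 each), a log2 fold change of -6.67 ± 0.83 (edgeR adjusted p = 0.000573). Mmp3, the matrix metalloproteinase stromelysin 1, averaged 4 ± 4.11 CPM in trauma and 1005 ± 254 CPM in ligature libraries (log2 fold change -7.98 ± 0.8, edgeR adjusted p = 0.000143). The osteoclast list had 12 of 17 genes called lower in trauma and none higher, with a median of -2.27. Ctsk averaged 1536 ± 656 CPM in trauma and 7988 ± 1296 CPM in ligature libraries (log2 fold change -2.38 ± 0.4, edgeR adjusted p = 0.00323). Dcstamp averaged 14.4 ± 9.53 CPM in trauma and 169 ± 29.5 CPM in ligature libraries (log2 fold change -3.54 ± 0.49, edgeR adjusted p = 0.00108). Acp5, Itgb3 and Mmp13 were lower in trauma too, by log2 fold changes of -2.27, -2.95 and -2.69 (edgeR adjusted p = 0.0084, 0.00214 and 0.0115).

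In the other direction, Bglap averaged 2221 ± 699 CPM in trauma libraries and 363 ± 153 CPM in ligature libraries (log2 fold change 2.61 ± 0.38, edgeR adjusted p = 0.00144), and 5 osteoblast genes were called higher in trauma with none lower. Xcr1 averaged 2.54 ± 1.04 CPM in trauma and 0.402 ± 0.0936 CPM in ligature libraries (log2 fold change 2.65 ± 0.5, edgeR adjusted p = 0.00584), so it was higher in overloaded tissue than in ligated tissue. Mmp12 averaged 167 ± 126 CPM in trauma and 25.1 ± 8.8 CPM in ligature libraries (log2 fold change 2.73 ± 0.63, edgeR adjusted p = 0.0178). Depdc7 averaged 20.8 ± 13.3 CPM in trauma and 6.05 ± 1.96 CPM in ligature libraries (log2 fold change 1.78 ± 0.42, edgeR adjusted p = 0.0187). The calls of Mmp12 and Depdc7 were lost in several of the alternative fits, with adjusted p up to 0.0581 for Mmp12 and 0.078 for Depdc7. The suprabasal list had the highest median of the 40 lists (7.71), and 12 of 18 suprabasal genes were called higher in trauma. Krt13 averaged 2008 ± 2687 CPM in trauma and 5.23 ± 3.82 CPM in ligature libraries (log2 fold change 8.58 ± 1.62, edgeR adjusted p = 0.00586). Odam, a protein of junctional epithelium, averaged 5650.2 ± 2809 CPM in trauma and 418 ± 127 CPM in ligature libraries (log2 fold change 3.76 ± 0.49, edgeR adjusted p = 0.0008). Of 17 endothelial genes, 9 were called lower in trauma and none higher. Selp, P-selectin, which captures rolling leukocytes, averaged 42.1 ± 29.8 CPM in trauma and 443 ± 172 CPM in ligature libraries (log2 fold change -3.39 ± 0.59, edgeR adjusted p = 0.00372).

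Several inflammatory genes did not pass the test between overloaded and ligated tissue. Cxcl2 averaged 177 ± 64.9 CPM in trauma and 266 ± 52.7 CPM in ligature libraries, with a 95% interval of the log2 fold change of -1.72 to 0.54 (edgeR adjusted p = 0.646). Il1b averaged 295 ± 154 CPM in trauma and 443 ± 108 CPM in ligature libraries, with an interval of -1.67 to 0.49 (edgeR adjusted p = 0.629). S100a9 averaged 1304 ± 750.2 CPM in trauma and 418 ± 135 CPM in ligature libraries, with an interval of 0.35 to 2.93 (edgeR adjusted p = 0.136). This interval, which is not adjusted for the number of genes, lay above 0 although the adjusted p missed the threshold. The intervals are wide, and a p that misses the threshold does not show that the 2 lesions were alike in these genes. Of the 19 neutrophil genes, none was called higher in trauma than in ligature and 2 were called lower. The list's median log2 fold change against ligature was -0.9, the opposite sign to S100a9. The medians of the acute-phase, cytokine, CXC and CC lists were -0.88, -0.56, -0.58 and -1.06, against -0.0053 over all genes tested. Called lower in trauma were 3 of 15 acute-phase genes, Saa3 among them, 1 of 20 cytokine genes and 2 of 14 CC genes. Called higher was 1 of 20 cytokine genes, and no CXC gene was called either way. Over all genes tested, 2.81% were called lower and 3.07% higher. Of the 21 cell cycle genes, 8 were called lower in trauma and none higher.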

How the data were processed

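The authors deposited 1 table of read counts per gene, whole numbers that are not normalised, for 55359 genes in all 16 libraries. Per the labels' protocols, total RNA was prepared with TRIzol and a Direct-zol kit, and libraries were made from its polyadenylated fraction. The submitters' processing notes list Trimmomatic 0.39, FastQC 0.11.9, HISAT2 2.2.1, StringTie 2.1.7, DESeq2 1.32.0 and build GRCm39, with no roles. Strand, counting tool and annotation are not stated there, so overlapping, antisense and near-identical genes cannot be told apart. Symbols came from a gene name table (52083 identifiers matched; the others held 0.205% of the counts) and transcript lengths from a GENCODE annotation of the older mouse build. Promoters are RefSeq sequences of GRCm38.p6, searched for 3 motifs; that for kB was shortened to its core after a longer form had been searched in the same promoters.

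Counts were tested with edgeR 4.0.16 (quasi-likelihood, TMM scaling, filterByExpr with a minimum count of 10) in R 4.3.3. All 16 libraries entered 1 fit of 4 groups with 12 residual degrees of freedom, and p-values were adjusted over 20953 genes. DESeq2 1.42.0 and limma 3.58.1 (voom with sample weights) were alternatives, as were other scalings, filters and subsets, a replicate block and each library left out. Removing the length trend and leaving out controls 3 and 4 together were chosen after seeing the data. The procedure was tested on simulated counts. No pair of libraries correlated above 0.948 in log2 CPM, so none was taken as listed more than once.

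Genes named are those called, up to 12 each way with the lowest p among genes with groups that do not overlap and a mean log2 CPM of at least 2, up to 4 per list, and a fixed bone and inflammation panel, without predicted genes. Ly6g, Myh7, Odam and the genes described against ligature were chosen after their values were seen. The comparison, the 40 lists (561 of 579 genes tested) and the rule were chosen with earlier results of these data known.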

Additional observations from a re-analysis of the deposited data

Results flagged for a closer look

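Of 270 groups of 4 libraries screened on the log2 scale, 21 held 1 library that stood apart from its own group by Dixon's criterion, which chance meets in about 1 group of 20. In the trauma group, trauma 1 was apart as low for S100a9 (246.0 CPM), Defb14 (4.73 CPM) and Sprr2d (626.8 CPM). It was also low for the hypoxia and glycolysis list, with a score of -0.27 log2 units from the mean of the 8 libraries. Trauma 3 was apart as low for Ccl3 (5.94 CPM) and for the collagen (-0.48) and Schwann cell (-0.76) list scores. Trauma 4 was low for Mcm5 (8.50 CPM), and trauma 2 was high for Bpifa2 (22.2 CPM).

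In the control group, control 1 was apart as low for Ccl6 (15.1 CPM), Mmp13 (772.2 CPM), Scx (12.2 CPM), Nkd2 (44.9 CPM) and Sfrp4 (103.0 CPM). Its list scores were also low for MHC class II (-0.58) and Wnt (-0.013) genes. Control 3 was low for Lyve1 (1.29 CPM) and the mechanosensing list (-0.19). Control 4 was low for Mak16 (32.8 CPM) and Ier3 (41.4 CPM) and high for Spock2 (18.6 CPM).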

How the results depend on the processing

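Saa3 stayed positive against control and negative against ligature in the alternatives run. The number of genes called in trauma against control was 118 by DESeq2, 0 without controls 3 and 4, and 0 to 3 when single libraries were left out. The number called in trauma against ligature was 2242 by DESeq2, 2094 with voom weights, 2205 with the length trend removed, and 681 to 1223 without single libraries. Genes at an unadjusted p under 0.05 in trauma against control, 1450 in the fit reported, numbered 2205 without a filter, 2278 with the compared groups only, 2557 with voom weights and 3329 in 13 libraries that leave out 3 short-transcript libraries of the other groups. With the replicate number as a block (replicate block), 1 gene was called against control and 1096 against ligature. Deviations of same-numbered trauma and control libraries correlated at 0.11, -0.06, -0.04 and 0.27. Differently numbered pairs were not set beside these few values, so they cannot decide whether the numbers pair the samples. Some log2 fold changes against control turned sign. That of Mpo, -3.26 in the fit reported, was 0.11 with voom weights and -3.79 to 0.24 without single libraries, positive without control 4. That of Acp5 was -0.045 with voom weights, -0.14 with the length trend removed and -0.42 to 0.34 without single libraries. Postn was at 0.069 with the length trend removed and -0.46 to 0.12 without single libraries. Bglap was at 0.0028 by DESeq2 and with DESeq2 size factors, 0.0078 with the stricter filter, 0.0047 with the compared groups only, 0.075 with the replicate block and -0.24 to 0.19 without single libraries. Sost was at -1.30 to 0.28 without single libraries. Without controls 3 and 4, Ctsk was at 0.43, Dcstamp at 0.017, Postn at 0.62 and Bglap at 0.61. The cause of these shifts was not tested. The number of libraries, 4 a group, limits the precision, and values below 1 CPM also carry counting error.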

Other observations

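A pair of genes listed at or near 0 in one group were singled out after their values were seen. Mmd2, a membrane protein of the progestin and adipoQ receptor family, had no count in any trauma library, against 118, 46, 81 and 43 counts in control libraries 1 to 4. It was the gene called by limma-voom with sample weights (adjusted p = 0.0161). Adnp, a chromatin factor used by most cells, was listed at 3, 0, 0 and 0 counts in trauma libraries 1 to 4, against 743, 1128, 2343 and 0 counts in control libraries 1 to 4. No fold is given for either gene, since what lies behind exact zeros in the deposited counts is not known.

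Other genes were called by edgeR when 1 library was left out. Bdkrb1, the inducible bradykinin receptor B1, passed by edgeR without trauma 1, with a log2 fold change of 3.03 (adjusted p = 0.00268). Actg2, the γ-actin of visceral smooth muscle, passed without control 3, and the predicted genes Gm39321 and Gm34589 passed without control 2.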
